A study of Mus musculus with 30 samples.

Results

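The enzymes described here run the citric acid cycle in mitochondria. They are 9 genes, Cs, Idh3a, Idh3b, Ogdh, Dlst, Sucla2, Suclg1, Fh1 and Mdh2, taken by symbol. All 9 stood among the 20300 genes with exonic counts and the 17916 genes with intronic counts, and all 9 passed the filter on low counts. Esrrb ChIP-seq peaks with a centre within 50 kb of their transcription starts numbered 18 of 14559.

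The study measured Esrrb binding and RNA in embryonic stem (ES) cells from mice of the 129/Ola strain, kept in serum medium with LIF. The RNA-seq groups were EKOiE-Ccna-Gfp cells sorted as early G1, late G1 or G2, each after 24 h of doxycycline (DOX) withdrawal and with DOX, with 3 libraries in each of the 6 groups. EKOiE is an ES line that lacks its own Esrrb and carries an Esrrb transgene switched on by DOX, so that both states share the knockout and the transgene. The ChIP-seq groups were mitosis and interphase (asynchronous) cells, each with 2 libraries after 48 h of withdrawal and 4 with DOX, all from EKOiE except DOX replicate 2 of each state, which came from wild-type E14Tg2a. The labels do not say whether libraries came from separate cultures, so p-values measure the spread between these libraries, which may be technical.

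In the cycle, citrate synthase joins acetyl-CoA to oxaloacetate, and the later enzymes oxidise the product step by step back to oxaloacetate while they reduce electron carriers for the respiratory chain. ES cells also draw on the cycle for alpha-ketoglutarate, a cosubstrate of enzymes that demethylate DNA and histones. Esrrb is an orphan nuclear receptor of the estrogen-related family, whose members are known to bind genes of mitochondrial metabolism, at sites built on the letters TCAAGGTCA.

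Each RNA-seq library held between 11.1 and 31.8 M exonic counts (M for mega) and between 6.1 and 20.8 M intronic counts. The G2 withdrawn replicate 1 library stood apart as the deepest in both, so results that rest on it are given with and without it. Intronic totals were 49.8 to 65.5% of exonic totals in withdrawn libraries and 49.8 to 85.0% with DOX. Exonic Esrrb was 140 to 195 counts per M (CPM, scaled by TMM) in the 9 withdrawn libraries and 203 to 341 CPM in the 9 with DOX, with no overlap. It fell by 0.68 ± 0.08 (log2 ± SE) averaged over the phases (edgeR adjusted p = 3.75e-05). Counts do not separate transgene reads from reads of the disrupted native locus. The 8 ES cell markers summed to 3990 to 5660 CPM in withdrawn libraries and 4650 to 5940 CPM with DOX. The 8 fibroblast or feeder markers summed to 9.27 to 15.7 CPM and 11.3 to 17.1 CPM in the same order, and 6 of the 8 were under 1 CPM. In bulk RNA, fewer cells of a type and less RNA per cell cannot be told apart.

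The upstream sequences shown first belong to 3 members with a peak over their start or nearest to it. They are the 250 bases before the start from RefSeq (GRCm38.p6), a different build from the mm9 of the peaks, so that no peak is placed on them. Suclg1 is shown because a peak covers its start, and Sucla2 and Fh1 because they are the members with the letters AGGTCA, the core of the receptor's site. Capitals mark AGGTCA or its reverse complement TGACCT.
Suclg1, chr6:73248255-73248504, plus strand: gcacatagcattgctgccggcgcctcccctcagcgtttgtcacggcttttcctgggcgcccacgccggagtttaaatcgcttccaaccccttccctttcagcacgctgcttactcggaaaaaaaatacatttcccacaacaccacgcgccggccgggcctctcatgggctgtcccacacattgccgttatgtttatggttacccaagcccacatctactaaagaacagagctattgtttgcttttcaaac
Sucla2, chr14:73552536-73552785, plus strand: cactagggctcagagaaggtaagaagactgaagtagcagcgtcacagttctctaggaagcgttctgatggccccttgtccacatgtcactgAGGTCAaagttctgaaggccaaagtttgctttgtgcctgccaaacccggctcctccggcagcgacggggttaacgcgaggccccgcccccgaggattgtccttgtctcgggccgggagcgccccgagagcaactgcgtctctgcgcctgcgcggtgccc
Fh1, chr1:175625636-175625885, minus strand: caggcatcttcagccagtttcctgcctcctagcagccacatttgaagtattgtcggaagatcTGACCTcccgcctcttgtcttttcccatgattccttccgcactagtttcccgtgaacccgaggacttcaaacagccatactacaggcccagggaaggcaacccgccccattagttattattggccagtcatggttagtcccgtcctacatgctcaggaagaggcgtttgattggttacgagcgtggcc

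The table of upstream sequences held 8 of the 9 members. Idh3a was not among them. On either strand, TCAAGGTCA occurred in none of the 8 and in 0.422% of the 27025 genes (0.387% of all 32851 windows). AAGGTCA, which it contains, occurred in none of the 8 and in 4.7% of genes (4.08% of windows). AGGTCA, contained in both, occurred in Sucla2 and Fh1, that is in 2 of the members and in 15.8% of the 27025 genes. In Sucla2 it lay 159 to 154 bases before the start on the gene's own strand, and in Fh1 188 to 183 bases before the start on the other strand. A match is a description of letters, and the absence of one says only that these letters are not in this window.

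The first question was whether the enzymes' RNA changed when Esrrb was lowered, in each sorted phase. No member passed in any single phase (edgeR adjusted p under 0.05), where 0.163% (early G1), 0.461% (late G1) and 0.972% (G2) of the 14092 genes passed. DESeq2 also called no member in a single phase. With the replicate number as a block in the fit, Mdh2 passed in late G1 (edgeR adjusted p = 0.0471) and in G2 (0.0441), where 9.04% and 11.2% of all genes passed. At an unadjusted p under 0.05 early G1 had 0 members among 1357 genes, late G1 had 2 among 1847, and G2 had 4 among 2034. Averaged over the 3 phases, 2 of the 9 members rose (Suclg1 and Mdh2) and 1 fell (Sucla2), where 16.9% of all genes passed, 8.43% higher and 8.47% lower. The median log2 change was 0.14 over the members and 0.00 over all genes. With the replicate block 5 members passed, these 3 with Ogdh and Idh3a, where 36% of all genes passed. When counts were summed over the phases, which leaves 3 libraries against 3, none of the 9 passed, with adjusted p of 0.29 for Suclg1, 0.324 for Mdh2 and 0.449 for Sucla2. That summed fit called 0.155% of the 14847 genes it tested, and the labels do not say whether the 3 phases of a replicate were sorted from 1 culture.

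**Figure D1:**
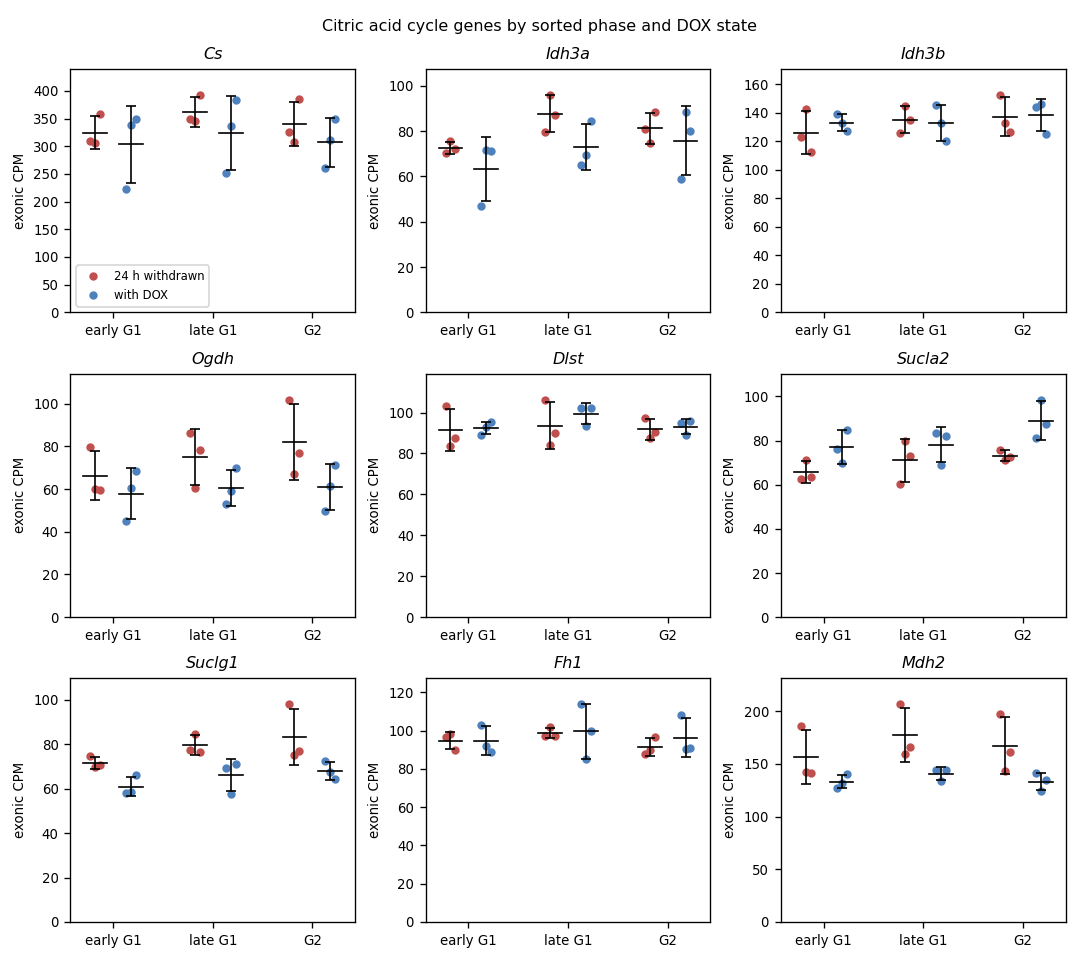
Exonic counts per M (CPM, TMM-scaled) of the 9 enzymes in early G1, late G1 and G2. Points are libraries, 3 per group, withdrawn in red and DOX in blue, and bars are the mean and SD. For Suclg1 and Mdh2 the withdrawn points lie above the DOX points in each phase, and for Sucla2 they lie below in G2.

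Succinyl-CoA ligase makes a nucleoside triphosphate as it turns succinyl-CoA into succinate. Suclg1 encodes its alpha subunit, which pairs with the ATP-specific beta subunit of Sucla2 or the GTP-specific beta subunit of Suclg2. Their exonic levels went in opposite directions. Suclg1 had 74.9, 69.9 and 70.6 CPM in withdrawn early G1 libraries, against 58.2, 58.7 and 66.1 CPM with DOX. In late G1 it had 77.5, 84.7 and 76.4 CPM after withdrawal, against 69.6, 57.8 and 71.3 CPM with DOX. In G2 it had 98.0, 75.2 and 76.9 CPM after withdrawal, against 72.4, 67.5 and 64.2 CPM with DOX. All withdrawn libraries of a phase stood above all DOX libraries of that phase, in each of the 3 phases. Such separation within 1 phase, in either direction, held for 14.4% of all genes (early G1), 17.2% (late G1) and 19% (G2). The share of genes separated in the same direction in all 3 phases was not counted. Suclg1 rose by 0.26 ± 0.07 log2 averaged over the phases (edgeR adjusted p = 0.0147). Without the G2 withdrawn replicate 1 library the change was 0.23 (edgeR adjusted p = 0.0261).

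Sucla2 had 62.4, 71.3 and 63.3 CPM in withdrawn early G1 libraries, against 76.3, 69.8 and 84.9 CPM with DOX. In late G1 it had 60.5, 79.6 and 72.9 CPM after withdrawal, against 83.4, 69.0 and 82.0 CPM with DOX. In G2 it had 75.9, 71.1 and 72.5 CPM after withdrawal, against 81.3, 98.5 and 87.4 CPM with DOX. The groups overlapped in early and late G1 and did not overlap in G2, as held for 19% of all genes. Sucla2 fell by 0.22 ± 0.07 log2 averaged over the phases (edgeR adjusted p = 0.0459), close to the threshold. It passed in 2 of the 18 fits that left out 1 library, with adjusted p from 0.0358 to 0.124, and without the G2 withdrawn replicate 1 library its change was -0.22 (edgeR adjusted p = 0.067).

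The ratio of the Suclg1 to the Sucla2 count within a library does not depend on how libraries are scaled. It was chosen after the values were seen, and since transcript lengths do not enter it is no ratio of molecules. It was 0.98 to 1.29 in the 9 withdrawn libraries (median 1.06) and 0.685 to 0.89 in the 9 with DOX (median 0.835). The ranges did not overlap. Since the pair sets a member called higher over a member called lower, the ratio shows those 2 results again within each library and is no test.

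**Figure D2:**
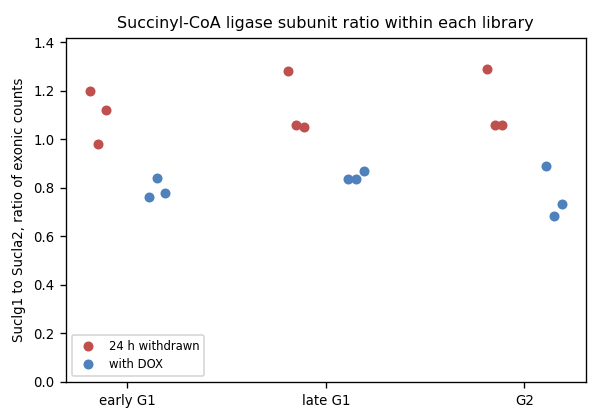
Ratio of the Suclg1 to the Sucla2 exonic count in each library, a pair chosen after the values were seen, by sorted phase, withdrawn in red and DOX in blue, 3 libraries per group. Every withdrawn library (0.98 to 1.29) lies above every DOX library (0.685 to 0.89).

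Mdh2, the mitochondrial malate dehydrogenase that regenerates oxaloacetate, had 186, 142 and 141 CPM in withdrawn early G1 libraries, against 128, 132 and 140 CPM with DOX. In late G1 it had 206, 160 and 166 CPM after withdrawal, against 144, 134 and 144 CPM with DOX. In G2 it had 197, 144 and 161 CPM after withdrawal, against 141, 124 and 134 CPM with DOX. The withdrawn libraries stood above the DOX libraries in each phase, narrowly in early G1 (141 against 140 CPM). Withdrawn replicate 1 was the highest of its group each time. Within 1 phase, groups did not overlap in either direction for 14.4% (early G1), 17.2% (late G1) and 19% (G2) of all genes. Mdh2 rose by 0.30 ± 0.08 log2 averaged over the phases (edgeR adjusted p = 0.0159). It passed in all 18 fits that left out 1 library (edgeR adjusted p from 0.0098 to 0.0362), as did Suclg1 (0.00886 to 0.0299).

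Ogdh encodes the first enzyme of the alpha-ketoglutarate dehydrogenase complex, which makes succinyl-CoA. It had 79.6, 59.9 and 59.7 CPM in withdrawn early G1 libraries, against 45.0, 60.3 and 68.4 CPM with DOX. In late G1 it had 86.4, 60.7 and 78.3 CPM after withdrawal, against 52.8, 59.2 and 69.8 CPM with DOX. In G2 it had 101.9, 67.2 and 77.0 CPM after withdrawal, against 49.8, 61.3 and 71.4 CPM with DOX. Replicate 1 was the highest withdrawn and the lowest DOX library in every phase, and the groups overlapped in each. Its change of 0.31 ± 0.11 log2 was the largest among the members and did not pass (edgeR adjusted p = 0.0692), and it was 0.25 without the G2 withdrawn replicate 1 library (edgeR adjusted p = 0.137). It passed with DESeq2 (adjusted p = 0.0474), where 18.2% of genes passed, with the replicate block (edgeR adjusted p = 0.0269) and in 5 of the 18 fits that left out 1 library (edgeR adjusted p from 0.0352 to 0.137). Dlst, the succinyltransferase core of the same complex, was 83.5 to 106.3 CPM after withdrawal and 88.8 to 102.4 CPM with DOX, a change of -0.04 ± 0.06 that did not pass (edgeR adjusted p = 0.69).

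Idh3a encodes the catalytic alpha subunit of the NAD-dependent isocitrate dehydrogenase and Idh3b a second subunit of it. Idh3a was 70.1 to 96.0 CPM in withdrawn libraries (median 79.7) and 46.8 to 88.3 CPM with DOX (median 71.2). Its change of 0.19 ± 0.10 log2 did not pass (edgeR adjusted p = 0.193), and passed with the replicate block (edgeR adjusted p = 0.0333). Idh3b was 112.6 to 152.5 CPM after withdrawal and 120.2 to 145.8 CPM with DOX, a change of -0.02 ± 0.07 (edgeR adjusted p = 0.864). Idh3b overlaps Nop56 on the opposite strand, and since no source used here gives the strand setting of the counting, its counts are uncertain as those of 1 gene.

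Cs, citrate synthase, was 306.2 to 392.7 CPM in withdrawn libraries (median 344.8) and 223.5 to 383.1 CPM with DOX (median 337.1). Its change of 0.13 ± 0.10 log2 did not pass (edgeR adjusted p = 0.389). The low values with DOX were those of replicate 1, at 223.5 CPM in early G1, 250.9 CPM in late G1 and 260.3 CPM in G2. Csl, a near-identical citrate synthase-like gene, also changed by 0.13 ± 0.11 (edgeR adjusted p = 0.417), and how reads were divided between the 2 genes is not known. Fh1, fumarase, which hydrates fumarate to malate, was 87.8 to 102.1 CPM after withdrawal and 85.2 to 113.7 CPM with DOX, a change of -0.03 ± 0.07 (edgeR adjusted p = 0.812).

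**Figure D3:**
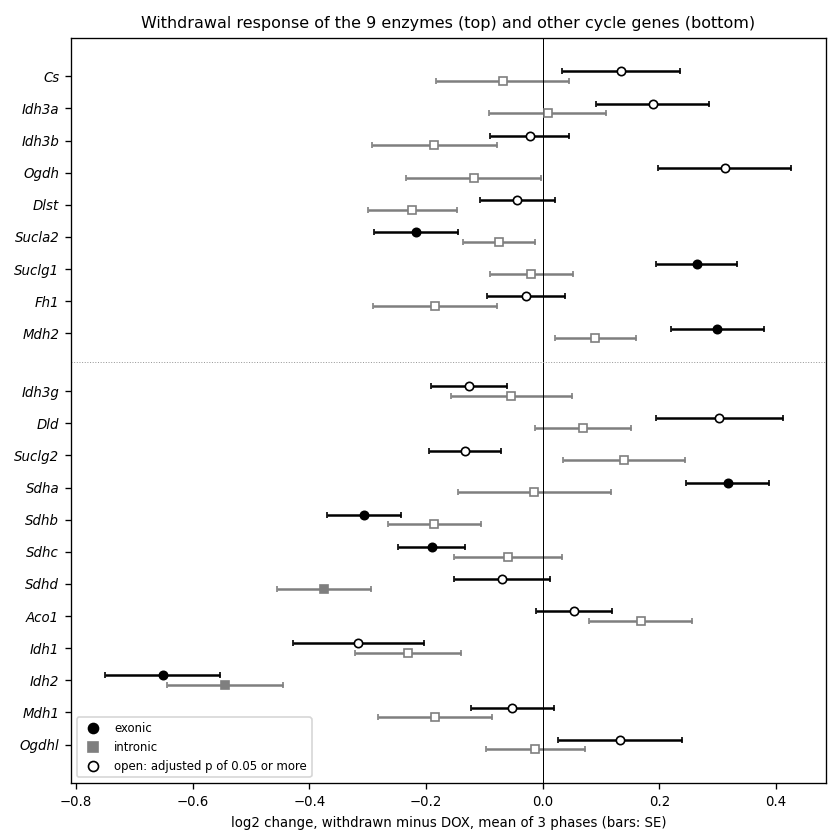
Log2 change, withdrawn minus DOX averaged over the 3 phases, with its SE, for the 9 enzymes above the dotted line and 12 other cycle genes below it. Circles are exonic and squares intronic, and filled symbols have an edgeR adjusted p under 0.05. Among the enzymes only the exonic Suclg1, Mdh2 and Sucla2 are filled.

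Intronic counts, which come largely from unspliced RNA, gave no called member in early G1, where 0% of the 14075 genes passed, in late G1 or G2, where 0.0142% passed in each, or in the average over phases, where 3.57% passed. At an unadjusted p under 0.05 there were 0, 0, 0 and 1 members among 806, 820, 1084 and 2565 genes in these 4 comparisons. DESeq2 also called none in these comparisons. The intronic changes averaged over the phases were -0.02 ± 0.07 for Suclg1, 0.09 ± 0.07 for Mdh2 and -0.07 ± 0.06 for Sucla2. The difference between exonic and intronic change was not tested. Suclg1 introns were lower after withdrawal in G2 with no overlap, at 50.3, 49.7 and 48.4 CPM against 53.8, 60.2 and 51.1 CPM with DOX, where 10.5% of genes did not overlap. In late G1 the groups overlapped and the withdrawn mean was higher, at 47.9 ± 3.7 CPM against 42.9 ± 6.4 CPM with DOX (SD, n = 3 each). In early G1 they also overlapped, at 46.4 ± 4.4 CPM after withdrawal and 48.6 ± 3.3 CPM with DOX. Dlst had the largest intronic change of the members, -0.22 ± 0.08 (edgeR adjusted p = 0.118), with 29.0, 37.8 and 36.5 CPM in withdrawn late G1 libraries against 42.4, 41.4 and 39.9 CPM with DOX, a separation seen in 11% of genes.

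The second question was whether the enzymes' RNA differed between sorted phases. None of the 9 members, and 0% of the 14092 genes, passed between any pair of phases in either state with edgeR or DESeq2. Since no gene at all passed, these comparisons cannot show that the members are alike between phases. No member reached an unadjusted p under 0.05 in these 6 comparisons, while 136 to 588 genes did. In withdrawn cells, G2 minus early G1 ran over the members from -0.05 (Fh1) to 0.31 (Ogdh), and with DOX from 0.00 (Mdh2) to 0.26 (Idh3a). Late G1 minus early G1 was above 0 in all 9 members after withdrawal (median 0.15) and in 8 with DOX (median 0.08), against medians of 0.01 and 0.00 over all genes. Of the 12 other cycle genes listed below, 11 were above 0 in each state (medians 0.08 and 0.05). Of 17 tested genes of carbon entry, refilling and export, 14 were above 0 after withdrawal and 11 with DOX. The share of all genes above 0 was not counted. These comparisons share libraries. The difference in withdrawal response between phases also passed for no member and for 0% of genes, and over the members it ran from -0.16 to 0.24.

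The other genes of the cycle are a list of 12. Averaged over the phases, 1 of them rose and 3 fell, where 16.9% of all genes passed. With counts summed over the phases 0.155% of genes passed, and the values of the genes named here in that fit are not given. Sdha, the flavoprotein subunit of succinate dehydrogenase, rose by 0.32 ± 0.07 (edgeR adjusted p = 0.00581). Its partners Sdhb, the iron-sulfur subunit, and Sdhc, a membrane anchor, fell by 0.31 ± 0.06 and 0.19 ± 0.06 (edgeR adjusted p = 0.00373 and 0.0301). Idh2, the NADP-dependent mitochondrial isocitrate dehydrogenase, fell by 0.65 ± 0.10 (edgeR adjusted p = 0.000408), with 73.3 to 97.4 CPM after withdrawal and 104.7 to 150.0 CPM with DOX. Of 18 genes that bring carbon in, refill the cycle or export its products, 17 were tested, none rose and 1 fell. That gene was Mpc1, a subunit of the mitochondrial pyruvate carrier, at -0.42 ± 0.12 (edgeR adjusted p = 0.023). In introns, where 3.57% of genes passed in the average, Idh2 fell by 0.55 ± 0.10 (edgeR adjusted p = 0.00558) and Sdhd, the other membrane anchor, by 0.37 ± 0.08 (edgeR adjusted p = 0.0167).

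The members did not vary as 1 group over the 18 libraries. The correlation of each member's log2 CPM with the mean of the others ran from -0.138 (Fh1) to 0.72 (Suclg1), with 0.616 for Ogdh, 0.594 for Mdh2 and -0.122 for Sucla2. The genes most like the mean of all 9 were Pdcd5 (r = 0.908), Fmnl3 (0.891), Atp5j (0.889), Polr2m (0.875) and Got2 (0.864), over the 18 libraries. These libraries differ in DOX state, phase and depth, and group means were not removed before the correlation.

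The third question was where Esrrb bound near these genes. All 9 members had a peak centre within 50 kb of the start, as did 66.7% of the 12 other cycle genes and 60.9% of the 14092 tested genes. Members and lists were chosen with earlier results of these data known, so these shares are a description. Within 10 kb there were 4 members, Idh3a, Idh3b, Ogdh and Suclg1, that is 44.4%, against 41.7% of the other cycle genes and 27.2% of tested genes. For 6 members at least 1 of these peaks was nearest to their own start, and for Cs, Dlst and Mdh2 every peak lay nearer to another gene. The authors sorted peaks into 5 classes, of which 1 to 3 are called Bookmarked and 4 and 5 Lost. Of the 18 peaks, 3 were class 2, 1 was class 3, 10 were class 4 and 4 were class 5. The Bookmarked peaks lay near Idh3a, Ogdh, Cs and Mdh2, that is near 44.4% of members. Such a peak lay near 33.3% of the other cycle genes, 38.9% of the 18 genes of carbon entry, refilling and export, and 18.8% of tested genes, and these differences were not tested.

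**Figure D4:**
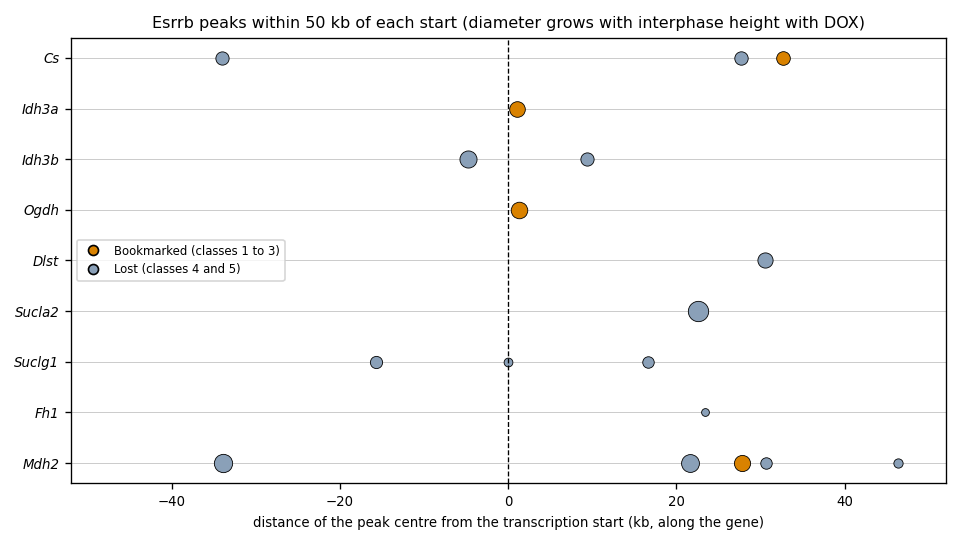
Esrrb peaks within 50 kb of the start of each enzyme gene, by distance of the peak centre along the gene in kb. Orange is Bookmarked and grey-blue is Lost, and the diameter grows with the mean interphase height with DOX. The Idh3a (+1.0 kb) and Ogdh (+1.2 kb) peaks are Bookmarked and close to the start, and the Suclg1 peak at 0.0 kb covers it.

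The Idh3a peak (mm9, chr9:54434701-54435900) lay inside the gene, 984 bases past the start. Its height in log2 reads per kb per M was -2.16 and -0.47 in mitosis and -1.09 and -0.43 in interphase after withdrawal. With DOX it was 1.22, 1.02, 0.17 and 1.16 in mitosis, against 1.60, 1.99, 1.72 and 3.20 in interphase. Every withdrawn library was below every DOX library of its state, and the share of all peaks that separate in this way was not counted. The Ogdh peak (mm9, chr11:6192151-6193500) lay 1226 bases past the start, also inside the gene. It had -2.33 and -1.05 in mitosis and -1.84 and -1.38 in interphase after withdrawal. With DOX it had 1.06, 0.98, 0.50 and 0.98 in mitosis, against 2.09, 2.46, 2.46 and 2.24 in interphase. Mitosis thus lay below interphase with no overlap, and the share of all peaks that do so was not counted either. With DOX, the mitotic heights of these 2 peaks were above those of 98.3% and 98.2% of all peaks. Since the classes come from these libraries, the heights of Bookmarked peaks are a description.

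The Suclg1 peak over the start (mm9, chr6:73198201-73198800) was low. It had -3.48 and -1.92 in mitosis and -3.00 and -1.79 in interphase after withdrawal. With DOX it had -1.57, -1.53, -1.90 and -0.44 in mitosis, against 0.56, 0.61, 1.07 and 0.78 in interphase, where its mean was above 15.1% of peaks. The Sucla2 peak (mm9, chr14:73974901-73975350), 22.5 kb inside the gene, was among the highest in interphase, above 94.9% of peaks. It had -3.22 and -1.50 in mitosis and -3.73 and -0.86 in interphase after withdrawal. With DOX it had 0.02, -1.22, 0.10 and -0.12 in mitosis, against 2.51, 3.02, 2.91 and 3.82 in interphase. Both of these peaks are classed as Lost.

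In mitosis against interphase, both with DOX, 17 of the 18 peaks were lower (limma adjusted p under 0.05), where 91.4% of all peaks were lower. The difference was -1.23 ± 0.48 at Idh3a +1.0 kb (limma adjusted p = 0.0191) and -3.37 ± 0.57 at Sucla2 +22.5 kb (limma adjusted p = 3.01e-05), the ends of the range. Without interphase DOX replicate 4 or mitosis DOX replicate 3 the Idh3a difference was -0.88 or -0.99 and did not pass (limma adjusted p = 0.0675 and 0.0748), and 13 to 17 of the peaks passed with 1 library left out. The exception was Fh1 +23.3 kb, at -1.47 ± 0.81 (limma adjusted p = 0.0861). Since the median over all peaks was -2.26, these values relative to that median were 1.02 at Idh3a, 0.83 at Ogdh and -1.11 at Sucla2. The authors' classes come from these same libraries, and 14 of the 18 peaks are Lost. The mitosis calls and the order of the peaks are thus a description too. With heights shifted to the same median none of the 18 passed.

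The withdrawn ChIP-seq libraries are titled ctl. Peaks picked for their signal with DOX would be lower after withdrawal by that choice. The withdrawal calls in both states may follow from it and are given as a description. In interphase, all 18 peaks were lower after withdrawal (limma adjusted p under 0.05), where 99.6% of all peaks were lower. The differences ran from -5.36 ± 0.69 (Sucla2 +22.5 kb) to -2.89 ± 0.59 (Idh3a +1.0 kb), against a median of -3.74 over all peaks. The Sucla2 value rests on few reads. Interphase withdrawn replicate 1 stood at the 0.9 reads set for an empty peak, and replicate 2 had 10 reads. At Idh3b -4.8 and +9.3 kb, Dlst, Fh1 and Mdh2 -34.0, +21.6 and +30.6 kb, replicate 1 also held 1 read or was empty. The Sucla2 difference was -3.93 without interphase withdrawn replicate 1 and -6.79 without interphase withdrawn replicate 2. Without interphase withdrawn replicate 1, Fh1 +23.3 kb did not pass (-2.31, limma adjusted p = 0.0599). In mitosis, 6 of the 18 were lower after withdrawal, where 22.4% of all peaks were lower. These were Mdh2 +27.8 kb (-2.84 ± 0.62), Ogdh +1.2 kb (-2.57 ± 0.53), Idh3a +1.0 kb (-2.21 ± 0.59), Sucla2 +22.5 kb (-2.06 ± 0.69), Cs +27.7 kb (-2.05 ± 0.69) and Cs +32.7 kb (-1.77 ± 0.65). The median over all peaks was -1.33. At Mdh2 +27.8 kb, Sucla2 +22.5 kb and Cs +27.7 kb, mitosis withdrawn replicate 1 held 1 read or was empty, so these differences rest on few reads too. The 2 withdrawn mitosis libraries differed widely, with median heights over all peaks of -2.8 and -1.09. The count was 0 without mitosis withdrawn replicate 1 and 15 without mitosis withdrawn replicate 2. It was 3 without mitosis DOX replicate 3 or 4 and 2 without the E14Tg2a libraries.

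**Figure D5:**
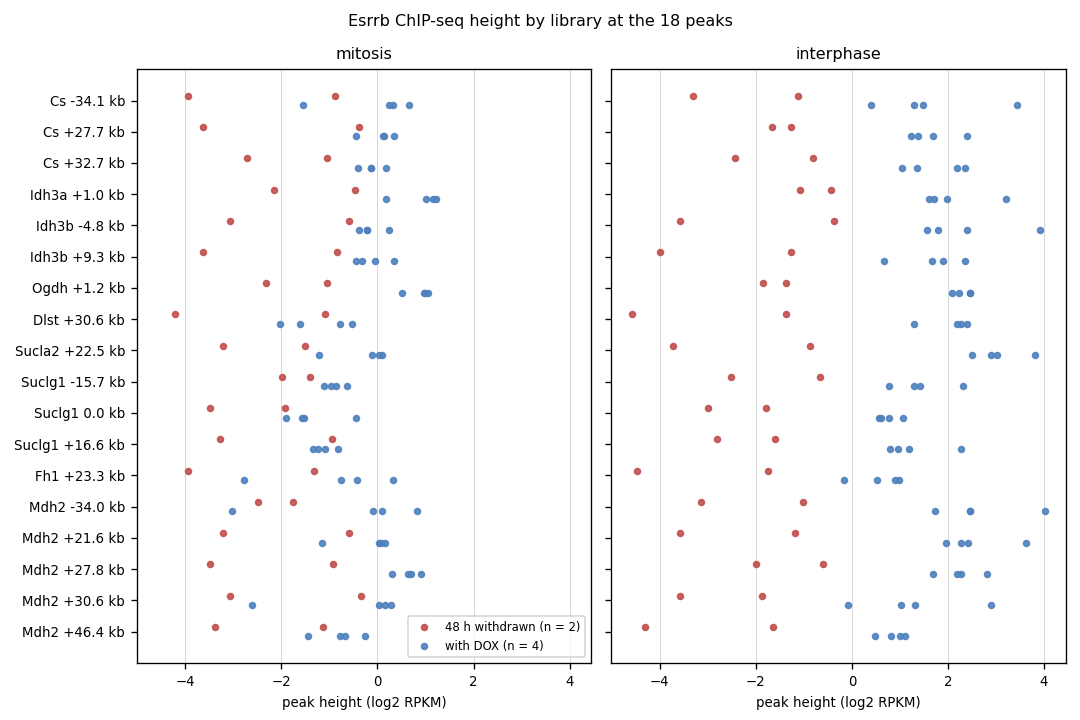
Height of the 18 Esrrb peaks (log2 reads per kb per M, RPKM) in each library, mitosis on the left and interphase on the right. Red points are the 2 withdrawn libraries and blue points the 4 with DOX. In interphase the withdrawn points lie below the DOX points at the peaks, and in mitosis several groups overlap.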

How the data were processed

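Per the labels' protocols, RNA-seq libraries were made with a stranded mRNA kit and ChIP-seq libraries with a low-input kit. The submitters' processing notes list build mm9 and the tools CASAVA 1.8, DESeq2 and Bowtie, without their roles. The deposited tables of exons and of introns give raw counts for each RefSeq transcript, per the file headers. No source used here gives the counter or its strand setting. The deposited peak table holds log2 heights, read from the values as reads per kb per M (2 to the power of the height times the length gives whole reads within 0.05, with an empty peak set to 0.9). The unit rests on that check. The library totals recovered this way were 10.7 to 67.5 M reads (M, mega). The mitosis libraries were read from columns named noco, which is not a word of the labels. Classes are the authors', per the file headers.

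The 18 RNA-seq libraries entered 1 edgeR fit of 6 group means (edgeR 4.0.16, R 4.3.3; filterByExpr defaults, TMM, quasi-likelihood F test, Benjamini-Hochberg adjustment over all genes at 0.05; 12 residual degrees of freedom). The SE is the log2 change divided by the square root of F. The 12 ChIP-seq libraries entered 1 limma fit with trend (limma 3.58.1) of 4 groups. Both procedures were run on simulated data as a check of the code. The simulated counts varied less than the real ones and held no replicate effect. The simulated peaks all had the same spread, so these runs do not measure accuracy on the real data. Alternatives were DESeq2 1.42.0, RLE size factors, no filter, the replicate number as a block, fits of 1 phase, counts summed over phases, each library left out, heights shifted to the same median, limma without trend and other windows. The summed fit with the block, the fit without E14Tg2a and the subunit ratio were added after the data were seen. Members and lists were chosen with earlier results of these data known. Named genes were all 9 members, Esrrb, listed genes that passed in an exonic withdrawal comparison and the 5 genes most like the members. Csl, a near-identical copy, and Sdhd, called in introns, fall outside that rule and were chosen after their values were seen. Over genes, deviations from the group mean in same-numbered withdrawn and DOX libraries correlated at 0.0804 to 0.503 in exons and 0.0799 to 0.411 in introns. Of 9 such pairs, 8 were over 0.1 in each, all but replicate 2 in G2 (exons) and in early G1 (introns). Libraries with different numbers correlated at -0.424 to 0.223 in exons and -0.339 to 0.104 in introns. In early G1 exons, withdrawn replicate 2 correlated more with DOX replicate 3 (0.223) than with DOX replicate 2 (0.176). The bound of 0.1 thus cannot settle whether the numbers pair the libraries. The replicate block fitted 1 effect per number, shared by all 3 phases. Upstream sequences and other names come from RefSeq tables. A listed gene of the cycle is not reported here.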

Additional observations from a re-analysis of the deposited data

Results flagged for a closer look

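Among 36 groups of 4 ChIP-seq libraries at the 18 peaks, 4 held a library whose gap to its nearest neighbour, as a share of the group's range, was above Dixon's 95% critical value for 4 samples. Chance flags about 1 in 20 groups, and peaks of 1 library are not independent. All 4 were mitosis libraries with DOX. At Ogdh +1.2 kb, replicate 3 had a height of 0.5 log2, against 0.98 to 1.06 in the others. At Sucla2 +22.5 kb, replicate 2, the E14Tg2a library, had -1.22, against -0.12 to 0.1. At Mdh2 +21.6 kb, replicate 1 had -1.16, against 0.03 to 0.16. At Mdh2 +30.6 kb, replicate 1 had -2.62, against 0.04 to 0.28.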

How the results depend on the processing

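The rises of Suclg1 and Mdh2 averaged over the phases passed with RLE size factors, no filter, DESeq2, the replicate block and each library left out, and did not pass with counts summed over the phases. Sucla2 was lost with RLE size factors (edgeR adjusted p = 0.0573) and no filter (0.109). The number of members called in the exonic average, 3 as reported, was 5 with the replicate block (36% of all genes), 0 with counts summed over phases (0.155%), 0 with that sum and the block (11.7%), and 2 to 4 with 1 library left out (1846 to 2599 genes, against 2382 with all libraries). With the replicate block 1 member passed in late G1, 1 in G2 (Mdh2 in both) and 1 in the intronic average (Dlst), where 9.04%, 11.2% and 15.2% of genes passed. Deviations of same-numbered mitosis and interphase ChIP-seq libraries with DOX correlated at -0.306 to 0.469. Those of libraries with different numbers correlated at -0.427 to 0.424, so the numbers did not consistently pair these libraries. In the exonic average Idh3b turned to 0.0004 with no filter, 0.0016 with summed counts and 0.0017 with summed counts and the block. With 1 library left out, exonic changes ran from -0.0539 to 0.0191 for Idh3b and -0.0436 to 0.008 for Fh1 in the average, -0.0815 to 0.2265 for Cs in early G1, -0.0035 to 0.3195 for Cs in late G1 and -0.0482 to 0.2243 for Idh3a in G2. Intronic ones ran from -0.0374 to 0.0765 for Idh3a and -0.0591 to 0.009 for Suclg1. The cause was not tested.

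With heights shifted to the same median, 0 peaks passed in mitosis against interphase, 0 in interphase withdrawal and 0 in mitosis withdrawal. Mitosis minus interphase turned to 0.381, 0.48 and 0.263 at Cs -34.1, +27.7 and +32.7 kb, 0.882 at Idh3a +1.0 kb, 0.355 at Idh3b +9.3 kb, 0.687 at Ogdh, 0.65 at Fh1 and 0.519, 0.289 and 0.471 at Mdh2 +27.8, +30.6 and +46.4 kb. Interphase withdrawal turned to 0.499 and 0.303 at Cs +27.7 and +32.7 kb, 0.768 at Idh3a, 0.612, 0.504 and 0.153 at Suclg1 -15.7, 0.0 and +16.6 kb and 0.119 at Mdh2 +27.8 kb. Mitosis withdrawal turned to 0.584, 0.054 and 0.404 at the same Suclg1 peaks and 0.219 at Mdh2 +30.6 kb. That shift removes any change shared by all peaks. The mitosis withdrawal count was 1 in limma without trend, 2 without the E14Tg2a libraries and 0 to 15 with 1 library left out. With 1 library left out, its differences ran from -2.98 to 0.15 at Dlst, -2.16 to 0.18 at Suclg1 +16.6 kb and -2.53 to 0.18 at Mdh2 +30.6 kb. A group left with 1 library was assumed to vary like the others. A 10 kb window gave 4 members and 5 peaks, and 7 of the 18 peaks were nearest to a member's start. Withdrawn ChIP-seq libraries held 2 to 23 reads at the median peak, which limits their heights.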
